A study of Zea mays with 6 samples.

Results

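Phytochromes are the red and far-red light receptors of plants. This account follows the transcripts of 5 maize (Zea mays) phytochrome genes among the 44146 genes listed for each library. They were chosen by identifier, before any filter, as phyA1 (Zm00001d033799), phyA2 (Zm00001d013402), phyB1 (Zm00001d028905), phyB2 (Zm00001d047632) and phyC2 (Zm00001d034038). The libraries came from shoots (seedlings without roots) at the 3-leaf stage, untreated and grown under normal conditions. There were 3 libraries of KO1, the line labelled as a knockout of Gβ, a subunit of heterotrimeric G proteins, and 3 of the wild type (WT), described as biological replicates. The sources used here do not give how the knockout was made, the genetic background, the light regime, the hour of harvest or how many plants went into a library. KO1 is a single line, so effects of losing Gβ and of anything else by which this line differs from the wild type cannot be told apart.

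A phytochrome is a dimeric protein that carries a bilin chromophore and switches between a red-absorbing form, in which it is made, and a far-red-absorbing form, in which it is active. In the active form it enters the nucleus, binds transcription factors of the PIF family and changes the expression of many light-regulated genes. The A type is known from oat and Arabidopsis as the receptor of far-red and of very weak light. Its protein builds up in darkness and is rapidly lost in light, and in oat its transcript falls in light as well. The B type is stable in light and is the main receptor of red light and of shade. The C type, also stable in light, depends on the B type for much of its function in rice and Arabidopsis. Maize carries its phytochrome genes as homeologs, copies left by an ancient duplication of its genome, hence the numbered names.

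Values are FPKM (fragments per kilobase and per unit of a library factor), so that genes of different length can be compared. Reads were worked back from the FPKM and numbered 16013231 to 17666150 in the KO1 libraries and 14758012 to 17042818 in the WT libraries. Replicates differed beyond sampling noise in every pair (mean chi-square per gene 11.2 to 152, where 1 is expected). WT replicate 3 stood apart, with a summed FPKM over all genes of 857831, against 531320 to 662881 in the other 5 libraries. KO1 replicate 2 differed more from KO1 replicates 1 and 3 (mean chi-square per gene 85.1 and 66.0) than these did from each other (11.5). The files hold identifiers without names, and 0 of the 44146 matched the RefSeq gene table (assembly Zm-B73-REFERENCE-NAM-5.0). The phytochrome names were therefore not checked against an annotation. It was likewise not checked which phyC copy Zm00001d034038 is, so the number in the name phyC2 may be wrong. The targeted Gβ gene, shoot markers and other genes of light signalling were not analysed here, since the identifiers matched no annotation. In such bulk shoot samples, fewer cells that express a gene and less of its RNA per cell cannot be told apart.

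All 5 genes were expressed in every library and passed the filter for testing (1 FPKM or more in 3 or more libraries). phyA1 rose in KO1, and it was the only 1 of the 5 to pass the test, which 31.2% of all tested genes passed. As deposited, phyC2 was lower in every KO1 library than in every WT library without passing, and phyA2, phyB1 and phyB2 overlapped between the genotypes.

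Of the A type, which mediates responses to far-red and very weak light, phyA1 had 5.69, 5.45 and 6.43 FPKM in KO1 replicates 1, 2 and 3, against 2.55, 3.39 and 3.12 FPKM in WT replicates 1, 2 and 3. The lowest KO1 library thus lay well above the highest WT library. Behind these values were 416 to 566 reads in each KO1 library and 177 to 256 in each WT library. The 95% Poisson counting intervals, which cover counting error only, began at 4.94 FPKM or above in KO1 and ended at 3.84 FPKM or below in WT. phyA1 averaged 5.86 ± 0.51 FPKM in KO1 and 3.02 ± 0.43 FPKM in WT (SD, n = 3 each), a ratio of means of 1.94. On the log2(FPKM + 1) scale, which understates the change of genes at such levels, it rose by 0.77 ± 0.16 (SE; 95% interval 0.38 to 1.17; limma, Benjamini-Hochberg adjusted p = 0.015). The call was lost, with little change in size, without WT replicate 1 (adjusted p = 0.058), KO1 replicate 1 (0.053) or KO1 replicate 3 (0.072) in limma. Calls over all tested genes fell as well, from 31.2% to 20%, 20% and 18.1% in these fits.

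Its homeolog phyA2 had 4.43, 5.90 and 3.92 FPKM in KO1 replicates 1, 2 and 3, and 2.73, 3.08 and 4.69 FPKM in WT replicates 1, 2 and 3. Its groups overlapped, because WT replicate 3 exceeded KO1 replicates 1 and 3. The means were 4.75 ± 1.03 FPKM in KO1 and 3.50 ± 1.05 FPKM in WT (SD, n = 3 each). The log2 fold change was 0.36 with a 95% interval of -0.20 to 0.93 (limma adjusted p = 0.28), an interval that includes both no change and the value of phyA1. The log2 fold change of phyA2 was 0.55 without WT replicate 3 (limma adjusted p = 0.086), but 0.22 without KO1 replicate 2 (0.52), 0.24 without WT replicate 1 (0.56) and 0.19 under quantile normalization (0.58).

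**Figure D1:**
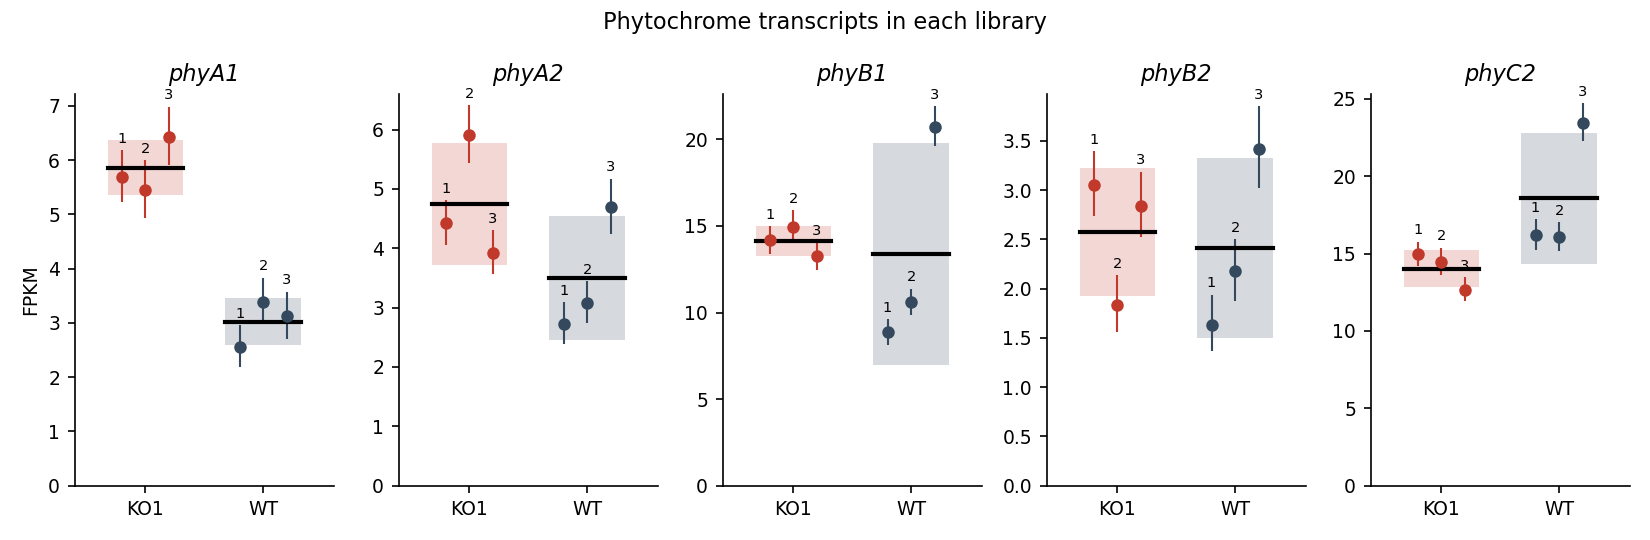
FPKM of the 5 phytochrome genes in each library (points, numbered by replicate) for KO1 and WT, each panel with its own axis from 0. Vertical lines are 95% Poisson counting intervals, black lines group means and shaded bands the mean ± SD (n = 3); the 3 KO1 points of phyA1 (5.45 to 6.43 FPKM) lie above all its WT points (2.55 to 3.39 FPKM), and WT replicate 3 is the highest WT point in the other 4 panels.

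Of the B type, the light-stable receptor of red light and shade, phyB1 was the more abundant member. It had 14.2, 15.0 and 13.3 FPKM in KO1 replicates 1, 2 and 3, against 8.85, 10.6 and 20.7 FPKM in WT replicates 1, 2 and 3. The KO1 libraries were close to each other, with the highest at 1.13 times the lowest, and lay between the WT libraries, whose highest was 2.34 times the lowest. The means were 14.1 ± 0.85 FPKM in KO1 and 13.4 ± 6.41 FPKM in WT (SD, n = 3 each), with a log2 fold change of 0.16 (95% interval -0.57 to 0.89; limma adjusted p = 0.73). This result turned on WT replicate 3. Without that library phyB1 was higher in KO1 by 0.50 on the log2 scale and passed the test (limma adjusted p = 0.044). The share of all tested genes that were called also rose then, from 31.2% to 37.1%. Without WT replicate 1 the log2 fold change of phyB1 was -0.069 (limma adjusted p = 0.90).

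phyB2, the least abundant of the 5 genes, had 3.05, 1.83 and 2.84 FPKM in KO1 replicates 1, 2 and 3, and 1.64, 2.17 and 3.42 FPKM in WT replicates 1, 2 and 3. The genotypes overlapped fully, with the highest and the lowest value both in WT. KO1 replicate 2 was low, at 0.62 times the mean of the other KO1 libraries, with 163 reads against 344 and 291. The means were 2.58 ± 0.65 FPKM in KO1 and 2.41 ± 0.91 FPKM in WT (SD, n = 3 each). The log2 fold change of 0.09 had a 95% interval of -0.54 to 0.71 (limma adjusted p = 0.83), and its sign turned under quantile normalization (-0.17), without WT replicate 1 (-0.084) and without KO1 replicate 1 (-0.014).

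phyC2, of the type whose function leans on phytochrome B, was the most abundant of the 5 on average. It had 15.0, 14.5 and 12.7 FPKM in KO1 replicates 1, 2 and 3, against 16.2, 16.1 and 23.5 FPKM in WT replicates 1, 2 and 3. At the deposited scaling every KO1 library lay below every WT library, by a narrow margin to WT replicates 1 and 2. The gap between KO1 replicate 1 and WT replicate 2 was within counting error, since their 95% intervals were 14.2 to 15.8 FPKM and 15.2 to 17.0 FPKM. The means were 14.0 ± 1.21 FPKM in KO1 and 18.6 ± 4.23 FPKM in WT (SD, n = 3 each). The log2 fold change of -0.36 (95% interval -0.82 to 0.10) did not pass the test (limma adjusted p = 0.20), and it was -0.19 without WT replicate 3 (limma adjusted p = 0.33).

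Thus 1 of the 5 genes passed the test, in a comparison in which 31.2% of the 23232 tested genes were called (15.2% higher and 16.0% lower in KO1). Groups without overlap were found for 2 of the 5, against 49.4% of all tested genes (25.0% higher and 24.5% lower in KO1). With so few genes these counts do not set the phytochromes apart from other genes. The median log2 fold change was 0.16 over the 5 genes and 0.02 over all tested genes. The authors' library factors hold the median gene nearly level. Scaling to equal summed FPKM or to the total reads moved the median of all tested genes to 0.24 and 0.20, and phyA1 then lay 0.74 above that median in both cases, against 0.75 as deposited. phyC2 lay 0.36 and 0.37 below it under these scalings and 0.38 below it as deposited. Such a scaling shifts all genes by nearly the same amount, so these distances from the median could hardly change. The log2 fold change of phyC2 itself was -0.12 and -0.16 in place of -0.36, and its genotypes overlapped under both scalings. At equal summed FPKM, KO1 replicate 1 (18.2) exceeded all WT libraries (15.8 to 17.7). The log2 fold changes under these scalings were 0.57 and 0.54 for phyA2, 0.40 and 0.36 for phyB1 and 0.28 and 0.25 for phyB2. None of these passed the test, which 30.7% and 32.3% of all tested genes passed. The genotypes of phyA2 then did not overlap. How many of all tested genes did not overlap was not counted under these scalings, which raise the median gene in KO1.

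**Figure D2:**
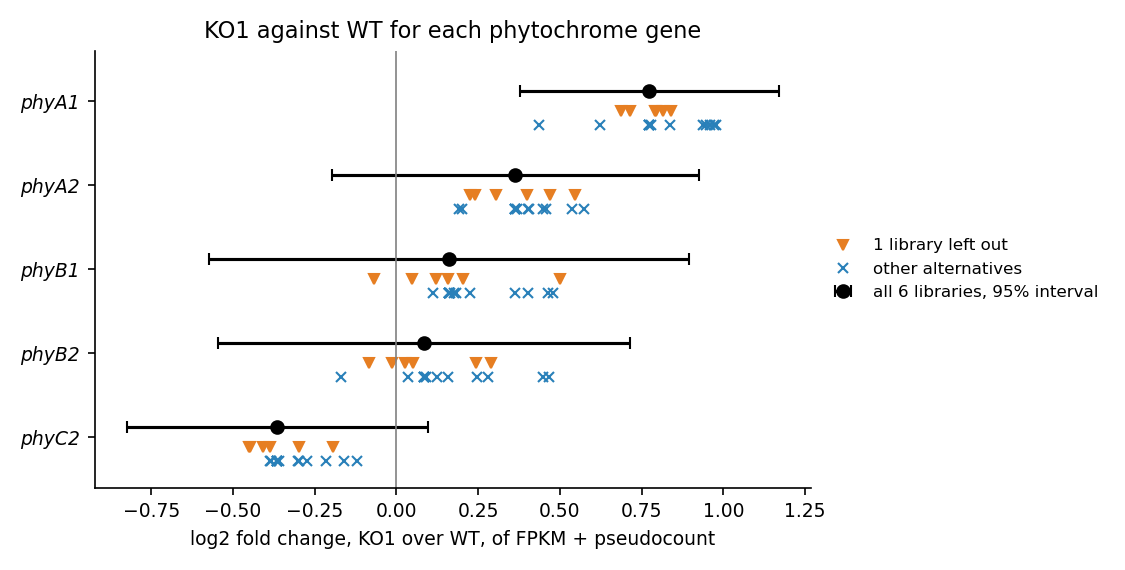
Log2 fold change of KO1 over WT for each gene (horizontal axis): black points with 95% limma intervals use all 6 libraries, orange triangles leave out 1 library, and blue crosses are the other alternatives. The interval of phyA1 (0.38 to 1.17) excludes 0, those of the other 4 genes include it, and triangles of phyB1 and phyB2 fall on both sides of 0.

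The spread among WT replicates was shared by 4 of the genes. WT replicate 3 exceeded the mean of WT replicates 1 and 2 by a factor of 2.13 for phyB1, 1.79 for phyB2, 1.62 for phyA2 and 1.45 for phyC2, whereas the factor was 1.05 for phyA1 and 1.03 for the median of all tested genes. These factors were higher than those of 88.0% of the tested genes for phyB1 and 83.0% for phyB2, and than those of 79.0% for phyA2 and 74.0% for phyC2. Within KO1 the corresponding library, replicate 2, was high for phyA2 (1.41 times the mean of KO1 replicates 1 and 3) and low for phyB2 (0.62 times), and lay within 0.90 to 1.09 times for the other 3 genes. phyA1 was thus among the steadier genes in both genotypes, with an SD on the log2(FPKM + 1) scale of 0.11 in KO1 and 0.16 in WT, against medians of 0.23 and 0.28 over all tested genes.

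Within a library the ratio of a gene pair does not depend on the library factor, so the levels were ordered by such ratios. The means over all 6 libraries were 16.3 FPKM for phyC2, 13.8 for phyB1, 4.44 for phyA1, 4.12 for phyA2 and 2.49 for phyB2. In 7 of the 10 pairs the same gene was the higher in all 6 libraries (exact two-sided sign-flip permutation test, p = 0.03125 for each, the smallest that 6 libraries allow; 0.045 adjusted over the 10 pairs). phyC2 and phyB1 formed the upper tier: phyB1 was 3.17 times phyA1, 3.33 times phyA2 and 5.52 times phyB2 (geometric means), and phyC2 was 3.82, 4.01 and 6.65 times these genes. The neighbours phyC2 and phyB1 were not ordered beyond their spread (exact permutation p = 0.16, 0.17 adjusted; phyC2 higher in 4 of 6 libraries), nor were phyA1 and phyA2 (p = 0.69 both before and after adjustment; phyA1 higher in 3 of 6 libraries). phyA2 exceeded phyB2 in every library, by 1.66 times, and phyA1 exceeded phyB2 in 5 of 6 libraries, by 1.74 times (exact permutation p = 0.0625, 0.078 adjusted). Among the genes above 0 in a library, phyC2 exceeded 69.5 to 79.1% of the others and phyB2, the lowest, 26.6 to 37.1%.

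In FPKM, the homeologs were unequal in the B type and close to equal on average in the A type. The lengths worked back with the reads were 4915 bases for phyA1, 6240 for phyA2, 4492 for phyB1 and 5723 for phyB2. Ratios of FPKM between genes rest on these lengths, and the spread over libraries would not show an error in them. phyB1 was 4.65, 8.16 and 4.67 times phyB2 in KO1 replicates 1, 2 and 3, and 5.41, 4.87 and 6.07 times in WT replicates 1, 2 and 3. phyB1 therefore made up 84.6 ± 3.90% of the B-type FPKM in KO1 and 84.4 ± 1.44% in WT (SD, n = 3 each). The ratio did not separate the genotypes (log2 difference 0.05, exact two-sided permutation p = 1), and the high value of KO1 replicate 2 came with the low phyB2 of that library. phyA1 was 1.29, 0.92 and 1.64 times phyA2 in KO1 replicates 1, 2 and 3, against 0.94, 1.10 and 0.67 times in WT replicates 1, 2 and 3. Its share of the A-type FPKM was 55.5 ± 7.09% in KO1 and 46.9 ± 6.36% in WT (SD, n = 3 each). The log2 ratio of phyA1 to phyA2 was 0.50 higher in KO1, with overlapping groups (exact two-sided permutation p = 0.3, where 3 against 3 allows no p below 0.1). The rise of phyA1 was thus not shown to differ from the change of phyA2. The sources used here do not say how reads that match both homeologs were counted, and such reads cannot be separated with these files.

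**Figure D3:**
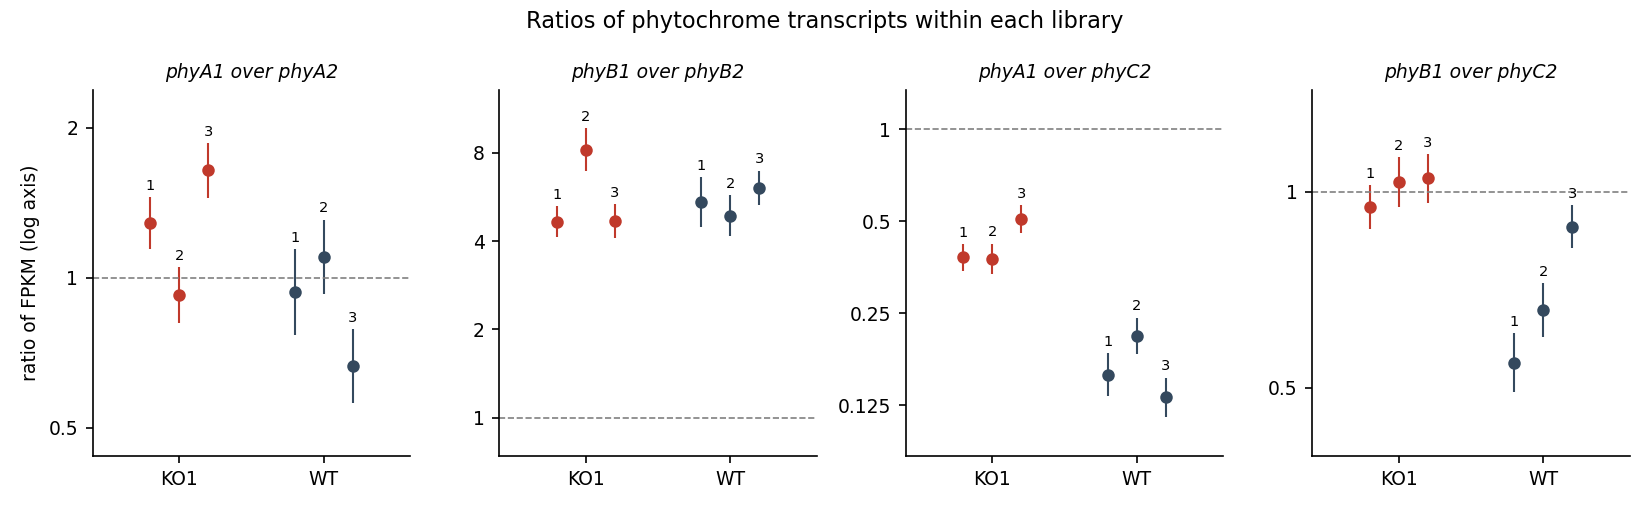
Ratio of FPKM within each library (log axis, dashed line at 1) for both homeolog pairs and for phyA1 and phyB1 over phyC2, with points numbered by replicate and 95% exact binomial intervals from the reads, for KO1 and WT. phyB1 exceeds phyB2 by 4.65 to 8.16 times in every library, phyA1 over phyA2 scatters around 1, and both ratios to phyC2 are higher in all KO1 libraries than in all WT libraries.

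Between types, several ratios did not overlap between the genotypes. The ratio of phyA1 to phyC2 was 0.38, 0.38 and 0.51 in KO1 replicates 1, 2 and 3, against 0.16, 0.21 and 0.13 in WT replicates 1, 2 and 3, a log2 difference of 1.35 in the means. phyA2 was likewise higher relative to phyC2, at 0.30, 0.41 and 0.31 in KO1 replicates 1, 2 and 3 and 0.17, 0.19 and 0.20 in WT replicates 1, 2 and 3 (log2 difference 0.85). phyB1 stood at 0.95, 1.03 and 1.05 times phyC2 in KO1 replicates 1, 2 and 3, against 0.55, 0.66 and 0.88 times in WT replicates 1, 2 and 3 (log2 difference 0.56). The ratios of phyA1 to phyB1 and of phyA1 to phyB2 did not overlap between genotypes either (log2 differences 0.78 and 0.83). Each of the 5 ratios without overlap, of 10 compared, had an exact two-sided permutation p of 0.1, the smallest that 3 against 3 allows. It was 0.2 after adjustment over the 10 pairs, so none passed a threshold of 0.05. Among the levels of all tested genes 49.4% did not overlap between the genotypes. That share is for levels and not for ratios, and ratios of other gene pairs were not compared. The 10 ratios also share genes, so 5 of 10 is not taken to set these genes apart.

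Summed over both homeologs, the A type reached 10.1, 11.4 and 10.4 FPKM in KO1 replicates 1, 2 and 3, and 5.28, 6.47 and 7.81 FPKM in WT replicates 1, 2 and 3. All KO1 sums exceeded all WT sums. As a share of the FPKM of the 5 genes, the A type held 25.7 ± 1.53% in KO1 and 16.3 ± 2.13% in WT, and phyC2 held 33.9 ± 1.50% in KO1 and 46.2 ± 4.21% in WT (SD, n = 3 each), without overlap in either case. The B type held 40.4 ± 0.91% in KO1 and 37.5 ± 5.51% in WT, with overlap. For the C type only phyC2 was counted. Any other phyC copy was left out, so these are shares of the 5 genes and not of all phytochrome transcripts. The exact two-sided permutation p was 0.1 for the A-type sum, the A-type share, the phyC2 share and the sum of the 5 genes per summed FPKM of the library (0.225 adjusted over the 9 sums and shares compared). It was 0.4 for the B-type share (0.6 adjusted). The A-type and phyC2 shares are parts of the same total, so they are not separate results. Of all tested genes, 49.4% had levels without overlap between the genotypes (25.0% higher and 24.5% lower in KO1). Sums and shares of other genes were not compared. The 5 genes together came to 41.4 ± 1.94 FPKM in KO1 and 40.9 ± 12.7 FPKM in WT (exact permutation p = 1, n = 3 each), and WT replicate 3 alone reached 55.4 FPKM. Set against the summed FPKM of each library, the same sum was higher in every KO1 library. It came to 71.0 ± 7.54 in KO1 and 57.3 ± 8.32 in WT per 1000000 of summed FPKM (SD, n = 3 each, exact permutation p = 0.1). The margin was narrow, with KO1 replicate 2 at 65.5 and WT replicate 3 at 64.6. At equal summed FPKM the median of all tested genes also rose, to a log2 fold change of 0.24. The comparison of this sum thus depends on the scaling.

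**Figure D4:**
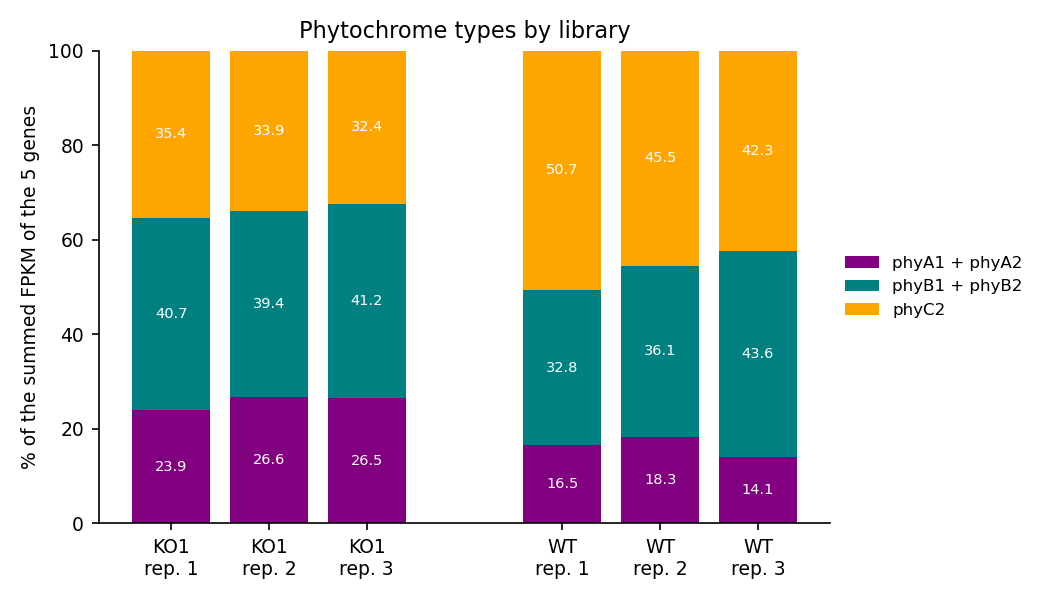
Stacked bars give the share of the A type (phyA1 + phyA2), the B type (phyB1 + phyB2) and phyC2 in the summed FPKM of the 5 genes, in % of each library, for KO1 and WT replicates. Any other phyC copy is not included. The A type takes 23.9 to 26.6% in KO1 and 14.1 to 18.3% in WT, and phyC2 takes 32.4 to 35.4% in KO1 and 42.3 to 50.7% in WT.

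The profiles of the 5 genes over the 6 libraries were compared by the root-mean-square difference of their centred log2(FPKM + 1) values. The closest were phyA2 and phyB1 (0.22) and the B homeologs (0.24), while phyA1 and phyC2 were the farthest apart (0.61) and the A homeologs lay in between (0.33). Outside the family, the gene of at least 5 FPKM most like phyA1 was Zm00001d025050 (0.07, where the median gene was at 0.58). Zm00001d025050 had 10.8, 10.4 and 11.8 FPKM in KO1 replicates 1, 2 and 3 and 6.07, 6.77 and 6.50 FPKM in WT replicates 1, 2 and 3, a log2 fold change of 0.68 that its choice by likeness to phyA1 already fixes. The gene most like phyB1 was Zm00001d031522 (0.05, median gene 0.55), at 43.2, 49.9 and 42.0 FPKM in KO1 and 30.8, 35.3 and 69.0 FPKM in WT. The gene most like phyC2 was Zm00001d028712 (0.04, median gene 0.47), at 8.75, 8.60 and 7.71 FPKM in KO1 and 9.11, 9.51 and 13.4 FPKM in WT. These identifiers carry no names in the files, and each was the closest of all genes compared, so nothing about shared function follows from the likeness.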

How the data were processed

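Shoot RNA of 6 libraries was read as 150 bp pairs, per the labels. The submitters' processing notes name TopHat2, Cufflinks, Cuffdiff and the build B73 RefGen_v4. The sources used here give no annotation, filter or strandedness. FPKM values per gene, without a header, were deposited. The unit was taken from the tools named and from the values. Whole reads were worked back from the FPKM steps (length within 0.02 and reads within 0.05 of a whole number), and FPKM rebuilt from them differed by at most 9.34e-08 of the value. A gene whose reads and length share a factor is given too few reads.

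KO1 was compared with WT on log2(FPKM + 1) with limma 3.58.1 (R 4.3.3; two-sided, eBayes with robust and trend options, calls at a Benjamini-Hochberg adjusted p below 0.05) over the 23232 genes that reach 1 FPKM in 3 or more libraries. Ratios and shares were compared by exact permutation over libraries. The recovery of reads and the limma fit were tested on simulated data. In the limma simulation no library stood apart as WT replicate 3 does here, so it does not cover calls under that spread. The 5 genes were named whatever their values, with 1 gene of similar profile (mean of at least 5 FPKM) for the most abundant gene of each type. The members, tests and alternatives were chosen with earlier results of these data known. The p-values measure the spread between these samples, which may share a growth or harvest. Lists of light signalling genes and tissue markers were not built, since the identifiers matched no annotation.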

Additional observations from a re-analysis of the deposited data

How the results depend on the processing

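phyA1 was higher in KO1 under all 18 alternatives run for it (log2 fold change 0.44 to 0.98) and phyC2 lower under all 19 (-0.45 to -0.12). Over the alternatives the limma adjusted p ranged from 0.00020 to 0.072 for phyA1, 0.020 to 0.58 for phyA2, 0.014 to 0.94 for phyB1, 0.017 to 0.98 for phyB2 and 0.030 to 0.67 for phyC2. Leaving out 1 library gave 0.69 to 0.84 for phyA1, 0.22 to 0.55 for phyA2, -0.069 to 0.50 for phyB1, -0.084 to 0.29 for phyB2 and -0.45 to -0.19 for phyC2. It gave 0.30 to 0.72 for the log2 difference in phyA1 over phyA2, -0.22 to 0.19 for that in phyB1 over phyB2, and 7 to 8 pairs in which the same gene was higher in every library. With the replicate number as a block, phyA1 kept its 0.77 but not its call (limma adjusted p = 0.069), as calls over all genes fell to 19.7%. Deviations of same-numbered libraries correlated at 0.15, -0.37 and -0.20, which shows no pairing by number. With 3 libraries in each group these values cannot decide it, and a shared growth or harvest of same-numbered libraries was not tested. Weighting the libraries called all 5 genes (phyA2 0.40, phyB1 0.48, phyB2 0.47, phyC2 -0.30), and 64.5% of all genes. Without WT replicate 3 and KO1 replicate 2 together phyB1 was called at 0.46 (51.4% of all genes were called) and the log2 difference in phyB1 over phyB2 was -0.14. Quantile normalization turned phyB2 to -0.17. The cause was not tested in these cases. A mean of at least 5 FPKM leaves out phyA1, phyA2 and phyB2. Scaling by total reads and the comparison of KO1 with WT for 8 of the 10 pair ratios were added after seeing the data, later than the other alternatives. The 9 sums and shares, the spread among replicates and the likeness among the 5 genes were not listed among the planned tests either.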
